A study of Homo sapiens with 9 samples.

Results

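The 69 genes described here were close to their control level in SUIT2 cells after 6 h of interferon beta and at least 2 times that level after 24 h. They were selected on the measured values themselves. A protein-coding gene entered if its mean at 24 h was 5 CPM or more (CPM being a gene's count relative to the library size, with TMM scaling) and at least 2 times the control mean, its mean at 6 h was no more than 20% below and 25% above the control mean, and its lowest 24 h library lay above its highest control library. The rule leaves out 4 genes by name, of which 3 meet its other terms. Of 59609 genes in the deposited table, 16964 passed the filter on low counts and 12782 of these were protein-coding. All 69 members had passed that filter. Because the rule used both comparisons with control, the members' own levels and ratios are given as a description, without a test.

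SUIT2 is an established human pancreatic cancer cell line. RNA sequencing covered 9 libraries in 3 groups of 3: interferon beta at 100 U/mL for 24 h, the same dose for 6 h, and control-treated cells. Wells had been seeded with 500000 cells and cultured for 24 h. The protocol, given in the same words for control and treated samples, then describes a change to fresh medium with interferon beta. How long the control cultures were kept is not stated in the labels, so an effect of interferon at 24 h cannot be told apart from one of time in culture. Nothing in the labels says that replicates came from separate cultures, and p-values then cover only the spread among these libraries, which may be technical. In RNA from whole cultures, fewer cells of a type and less RNA per cell cannot be told apart.

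Type I interferons bind a receptor on nearly every nucleated cell, and the kinases attached to it activate transcription factors of the STAT family, which enter the nucleus with IRF9. There the complex binds interferon-stimulated response elements (ISREs) and switches on antiviral genes within hours, while pairs of STAT proteins bind the related GAS elements. Genes that respond late can depend on proteins made in that first wave, on changes in growth or on changes in metabolism, and are less well described than the antiviral genes. In ductal epithelium, from which pancreatic carcinoma arises, junction proteins, surface proteases, ion pumps and mucins are hallmarks of the differentiated cell.

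Promoters were examined first, because they show which members carry the letters of the classical interferon elements at their start site. RefSeq windows of GRCh38.p14, from 250 bases before to 50 bases after the start site, matched 52 of the 69 members by symbol. An ISRE core, searched as GAAANNGAA on both strands, was in 4 of the 52 (7.69%), in 8.29% of all 27305 promoter windows and in 6.51% of 10146 windows of tested coding genes. A GAS element, searched as TTCNNNGAA on both strands, was in 5 (9.62%), against 7.88% of all windows and 6.16% of those of tested coding genes. The members' shares were therefore near the background. The windows printed here hold these elements at CLDN7, a tight-junction claudin, DNASE2, the acid deoxyribonuclease of lysosomes, TRIM2, a ubiquitin ligase, GIPC2, a PDZ scaffold protein, and SERPINA6, the corticosteroid carrier, whose 24 h mean was 4.53 times its control mean. The SEMA4G window has the only match among members to the sterol element searched as TCACNCCAC. Capitals mark the ISRE core in the CLDN7, DNASE2, TRIM2 and GIPC2 windows, the GAS element near the end of the TRIM2 window and in SERPINA6, and the sterol element in SEMA4G.
CLDN7, chr17:7263164-7263463, minus strand: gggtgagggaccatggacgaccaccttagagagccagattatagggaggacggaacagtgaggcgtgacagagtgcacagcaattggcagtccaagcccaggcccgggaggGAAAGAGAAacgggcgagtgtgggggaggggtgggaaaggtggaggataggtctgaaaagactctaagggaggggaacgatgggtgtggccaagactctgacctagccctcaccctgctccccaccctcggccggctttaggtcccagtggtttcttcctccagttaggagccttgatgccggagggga
DNASE2, chr19:12881400-12881699, minus strand: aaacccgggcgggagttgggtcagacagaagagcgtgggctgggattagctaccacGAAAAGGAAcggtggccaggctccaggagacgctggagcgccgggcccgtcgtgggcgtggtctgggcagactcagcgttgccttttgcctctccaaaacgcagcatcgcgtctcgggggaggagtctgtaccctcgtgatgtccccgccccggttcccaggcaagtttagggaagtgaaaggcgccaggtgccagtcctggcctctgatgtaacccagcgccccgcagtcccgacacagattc
TRIM2, chr4:153151913-153152212, plus strand: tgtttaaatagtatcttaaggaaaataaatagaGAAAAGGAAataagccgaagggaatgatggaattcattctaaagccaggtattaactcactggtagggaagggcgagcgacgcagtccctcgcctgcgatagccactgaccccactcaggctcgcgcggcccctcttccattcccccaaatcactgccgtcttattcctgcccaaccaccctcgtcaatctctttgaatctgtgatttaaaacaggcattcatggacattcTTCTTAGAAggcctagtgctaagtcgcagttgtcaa
GIPC2, chr1:78044720-78045019, plus strand: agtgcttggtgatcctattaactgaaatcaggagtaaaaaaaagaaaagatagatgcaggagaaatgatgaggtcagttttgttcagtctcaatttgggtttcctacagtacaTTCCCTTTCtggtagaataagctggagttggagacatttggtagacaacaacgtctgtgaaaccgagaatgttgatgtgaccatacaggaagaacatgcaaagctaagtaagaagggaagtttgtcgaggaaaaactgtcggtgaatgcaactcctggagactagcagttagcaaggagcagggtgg
SERPINA6, chr14:94323287-94323586, minus strand: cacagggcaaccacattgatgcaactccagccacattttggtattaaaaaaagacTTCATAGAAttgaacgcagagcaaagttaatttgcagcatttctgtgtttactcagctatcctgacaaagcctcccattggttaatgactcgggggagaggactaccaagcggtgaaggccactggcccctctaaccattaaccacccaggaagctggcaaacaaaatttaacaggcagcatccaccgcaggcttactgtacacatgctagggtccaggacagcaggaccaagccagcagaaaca
SEMA4G, chr10:100969254-100969553, plus strand: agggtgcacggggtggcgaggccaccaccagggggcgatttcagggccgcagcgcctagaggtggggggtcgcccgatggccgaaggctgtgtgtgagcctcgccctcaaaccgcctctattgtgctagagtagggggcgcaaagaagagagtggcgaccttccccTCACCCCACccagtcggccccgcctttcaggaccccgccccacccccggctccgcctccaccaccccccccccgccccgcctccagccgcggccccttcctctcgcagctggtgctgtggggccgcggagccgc

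In these windows the ISRE core began 217 bases before the start site at TRIM2, 194 at DNASE2, 139 at CLDN7 and 137 at GIPC2, where it lay on the other strand. The GIPC2 window surrounds a RefSeq start site well inside the gene as the deposited table delimits it (chromosome 1, 77979542 to 78138445), and the CLDN7 window also lies inside the deposited span. A match is a run of letters and not evidence of binding. The other 3 GAS matches were in LNX1, LIMA1 and PLEKHB1. Among further motifs, the hexamer GGAATG of TEAD factors was in 25% of member windows, 14.0% of all windows and 10.9% of tested coding windows. Of all motifs searched, it had the largest excess over tested coding windows, and no motif share was tested. GGGCGG, the GC box, was in 55.8% of member windows, against 44.6% of all and 70.6% of tested coding windows. CCAAT was found in 34.6%, against 35.7% and 36.8%. The AP-1 site TGANTCA was in 7.69% of member windows and 4.35% of tested coding windows, and the site TGACGTCA in 3.85% and 3.25%. Lower in member windows were the E-box CACGTG (5.77% against 10.2%), TATAAA (3.85% against 5.53%) and the NF-kB site GGGANNTTC (3.85% against 4.12%). The median GC content was 62.67% in member windows and 65.33% in those of tested coding genes.

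Across the 69 members the ratio of 24 h to control means was 2.01 or more, with a median of 2.36, against a median of 1.00 over all tested genes. The ratio was 2 to 2.5 in 41 members, 3 or more in 15 and 4 or more in 3. The ratio of 6 h to control means ran from 0.80005 to 1.246 with a median of 1.01, and the 6 h mean was above the control mean in 35 members and below it in 34. Set against 6 h in place of control, the 24 h means were at least 1.64 times as high, with a median of 2.41. The 24 h mean was under 10 CPM in 28 members, 10 to 100 CPM in 28 and 100 CPM or more in 13. No member had a control library with fewer than 10 counts. The median coefficient of variation between replicates was 4.24% at 24 h, 6.93% at 6 h and 8.02% in control.

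All 69 members were called higher at 24 h than in control by edgeR's quasi-likelihood test (adjusted p under 0.05), where 24.7% of all tested genes were called higher and 25.3% lower. In all 69 every 24 h library lay above every control library, as the rule requires, which held for 29.9% of tested genes. All 69 were also called higher at 24 h than at 6 h, against 26.6% of tested genes called higher and 30.6% lower, and their 24 h and 6 h libraries did not overlap, against 29.8% of tested genes with every 24 h library above. These counts follow from the rule or from the ratios it fixes, and nothing is read from them. At 6 h the test called 8 members higher than control, where 17.5% of tested genes were called, and 9 lower, where 15.4% were. Every 6 h library was above every control library for 12 members (21.3% of tested genes) and below for 11 (20.8%), and the groups overlapped for 46. The rule limits these 6 h counts as well, and they are not read against the shares of tested genes. The band around the control mean holds genes with small differences at 6 h as well as genes with none found. Those called higher included FCGBP, ST14, DHRS3, LIMA1, PARP6, ERBB3 and CPVL, and those called lower were SREBF1, SEMA4G, NIPAL1, TMEM135, SYTL2, CD24, PPP1R1B, HOXA13 and NYNRIN.

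**Figure D1:**
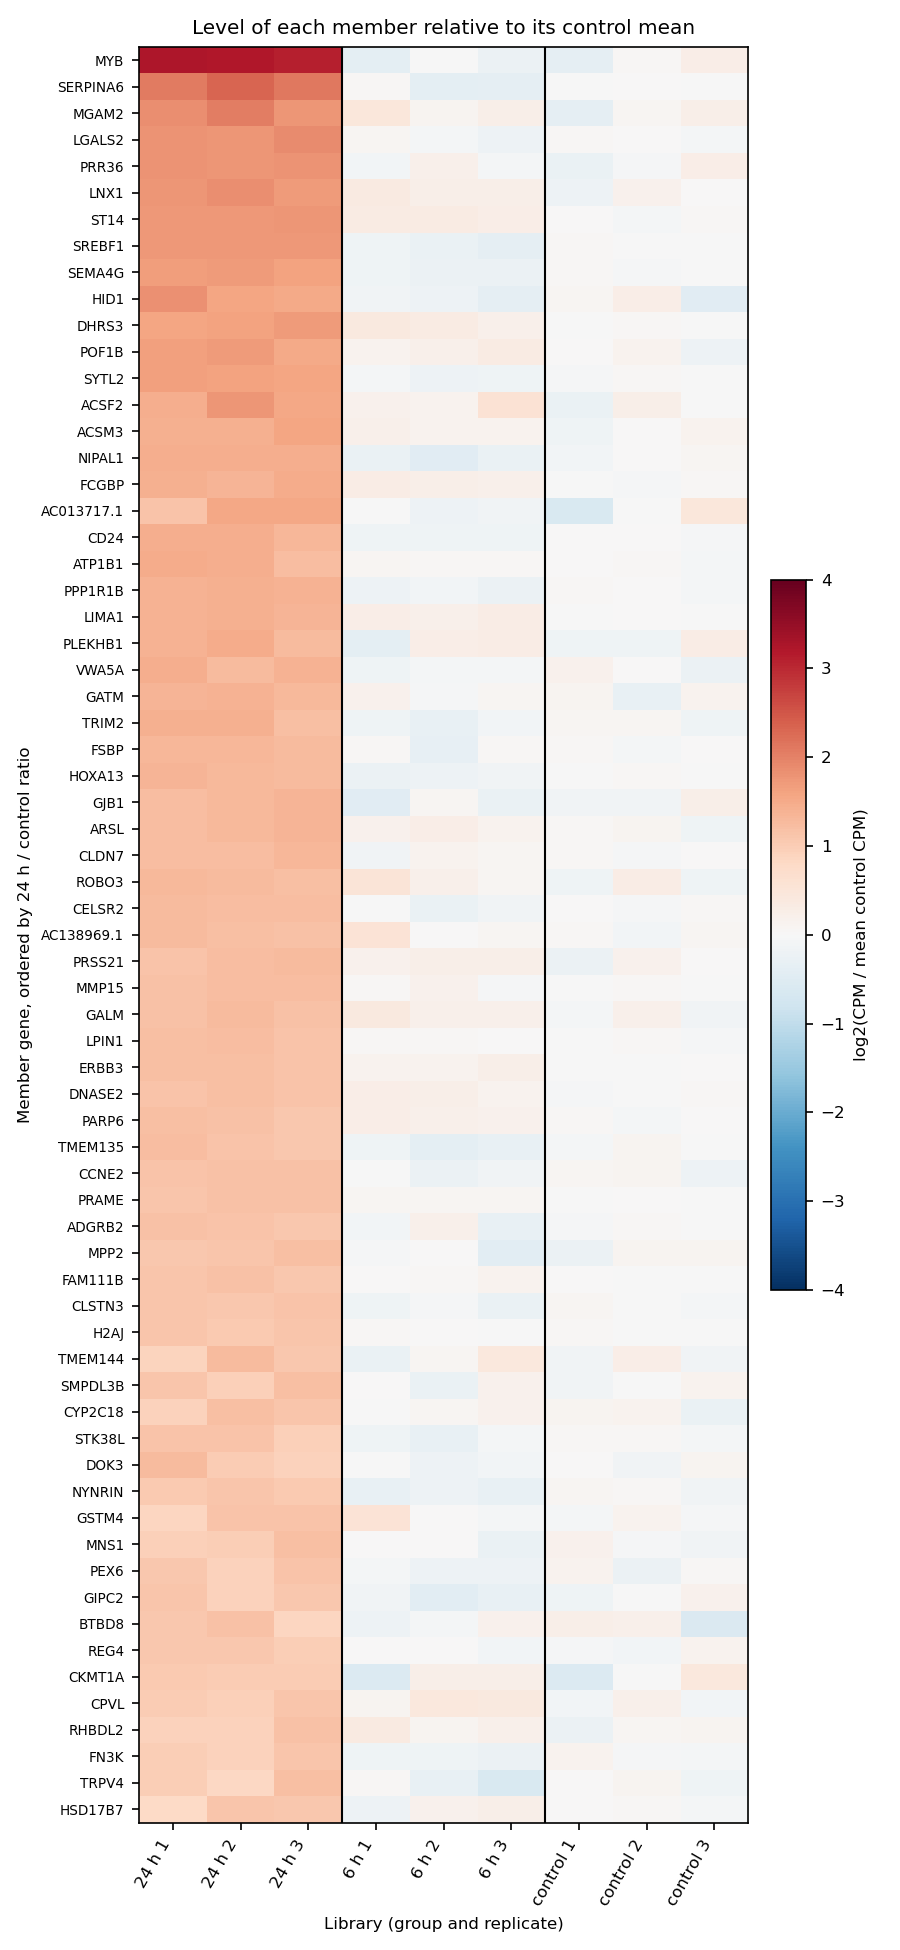
Each row is 1 of 67 members and each column a library, in the order 24 h, 6 h and control; colour gives log2 of the CPM over the mean control CPM. The 3 columns at 24 h are red in all rows, darkest for MYB, while the 6 h columns stay pale, as the rule requires.

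The selection sits inside a larger set. In all, 291 coding genes had a 24 h mean of 5 CPM or more, a 24 h ratio of 2 or more and no overlap with control. At 6 h, 36 of them lay below the band, 183 above it and 72 within it, which are the 69 members and 3 of the genes left out by name. Just inside the 24 h threshold stood HSD17B7, TRPV4 and FN3K, each at 2.01, and just outside C9orf64 at 2.00, FAM214A at 1.99 and NR1H3 at 1.99. At the lower edge of the 6 h band NIPAL1 (0.80005), TMEM135 (0.821) and GIPC2 (0.822) were inside and RYR2 (0.797), ARRB1 (0.784) and FAM222A (0.762) outside. At the upper edge DHRS3 (1.246), CPVL (1.24) and ACSF2 (1.24) were inside and DOC2A (1.28), BCL2L15 (1.29) and HLA-DMA (1.29) outside. At the level threshold GJB1 (5.07 CPM), PRSS21 (5.25) and PLEKHB1 (5.29) were inside and AK7 (4.95), RIBC2 (4.88) and RAP1GAP (4.75) outside.

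**Figure D2:**
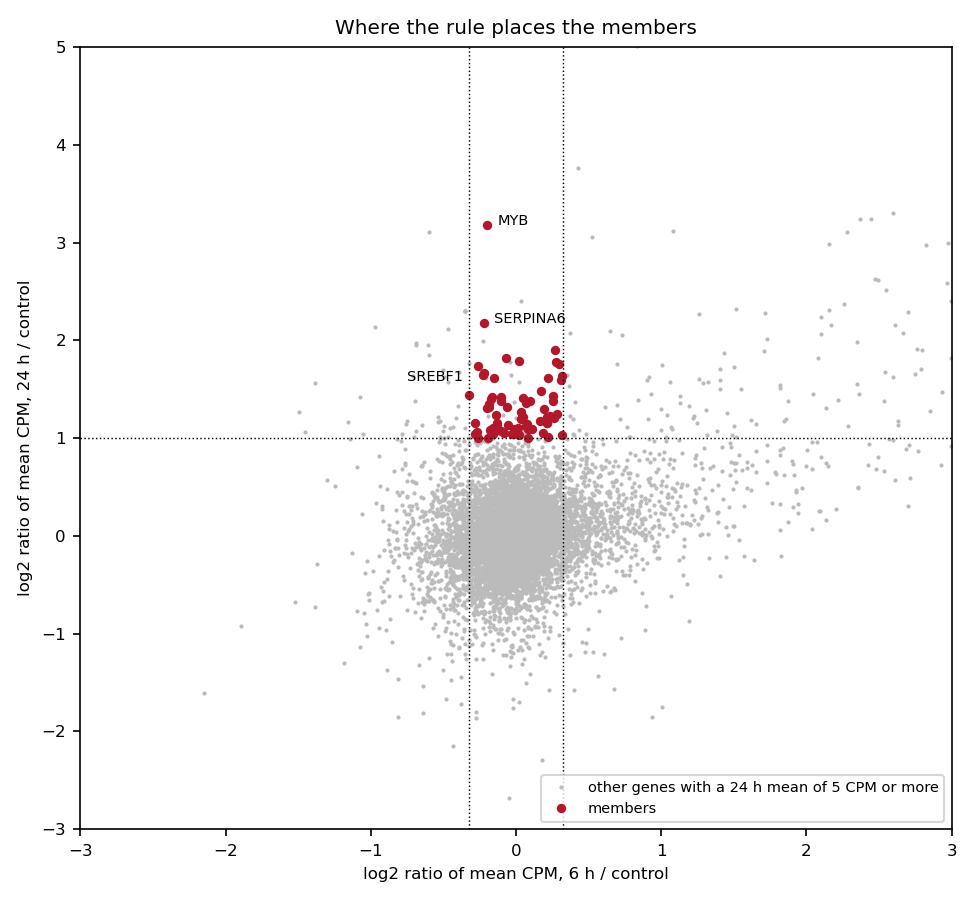
Points are 11548 genes with a 24 h mean of 5 CPM or more, with the log2 ratio of 6 h to control means on the x axis and of 24 h to control means on the y axis; dotted lines mark the edges of the band at 6 h and the ratio 2 at 24 h, and 100 genes lie outside the axes. The 67 members drawn (red) fill the column between the dotted lines from a 24 h ratio of 2.01 up to MYB at 9.07. The grey points among them are noncoding features or pseudogenes, and genes not reported here are not drawn.

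Which genes fall in the band depends on the scaling of the libraries. With library size alone as the scaling, 54 of the 69 met the rule and the other 15 fell below the band at 6 h, among them SREBF1 with a 6 h ratio of 0.757. With the values the authors had normalized, 47 met it, and the other 22 lay above the band. All 69 kept a 24 h ratio of 2 or more under both scalings, with a median of 2.49 by library size and 3.19 in the deposited table. Leaving out 1 library at a time kept 38 members in the rule every time and dropped the other 31 at least once. Of the members with the 15 largest ratios, MYB was dropped without control library 1, LNX1 without control library 2, ST14 and HID1 without control library 3, and SERPINA6 without 6 h library 1. MGAM2 was dropped without control library 3 or 6 h library 2, DHRS3 without control library 2 or 6 h library 3, and ACSF2 without control library 2 or 6 h library 1 or 2.

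Genes of lipid, peroxisomal and steroid metabolism made up 11 members. SREBF1 encodes SREBP-1, the membrane-bound factor that drives genes of fatty acid synthesis, and had 335, 329.9 and 335 CPM at 24 h, 88.5, 83.4 and 78.1 CPM at 6 h and 103, 98.5 and 98.5 CPM in control. All 3 of its 6 h libraries were below the lowest control library, and all 24 h libraries were far above both groups (3.33 times the control mean). The gene overlaps RAI1 on the other strand, whose 24 h mean was 0.973 times its control mean.

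Both acyl-CoA synthetases among the members, which activate fatty acids by joining them to coenzyme A, lie lower in level. ACSF2 had 7.11, 8.85 and 7.63 CPM at 24 h, 2.92, 2.91 and 3.86 CPM at 6 h and 2.16, 3.07 and 2.61 CPM in control, with 6 h and control overlapping. For ACSM3 the values were 32.1, 31.9 and 35.1 CPM at 24 h, 13.8, 13.2 and 13.1 CPM at 6 h and 10.6, 12.1 and 12.97 CPM in control, and the 6 h libraries all exceeded control by a narrow margin. LPIN1, the phosphatidate phosphatase on the route to triglyceride, had 33.3, 33.5 and 31.5 CPM at 24 h, 14.7, 14.8 and 14.6 CPM at 6 h and 14.3, 14.8 and 13.9 CPM in control, so that 6 h and control were hardly apart. DHRS3, which reduces retinal to retinol, had 167, 168 and 182 CPM at 24 h, 73.3, 70.5 and 64.1 CPM at 6 h and 55.3, 56.9 and 54.6 CPM in control. Its 6 h libraries were all above control, which places it at the upper edge of the band. The remaining ratios of 24 h to control means were 2.22 for TMEM135, a peroxisomal membrane protein, 2.13 for the sphingomyelinase-like SMPDL3B, 2.13 for the cytochrome P450 CYP2C18, 2.06 for PEX6, an ATPase of peroxisome assembly, and 2.01 for HSD17B7, an enzyme of cholesterol synthesis.

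Other genes of lipid metabolism, chosen after values had been seen but not by the rule, were tested with edgeR over all genes. BDH1, which interconverts the main ketone bodies, had 43.8, 43.9 and 43.2 CPM at 24 h, 14.5, 16.9 and 15.4 CPM at 6 h and 22.7, 21.3 and 23.4 CPM in control. It rose by 0.96 ± 0.05 (log2, SE) at 24 h (edgeR adjusted p = 6.36e-10) and fell at 6 h, when its log2 fold change was -0.52 ± 0.06 (edgeR adjusted p = 8.9e-06). OXCT1, which uses ketone bodies, fell at 24 h with a log2 fold change of -0.42 ± 0.05 (edgeR adjusted p = 1.58e-06), and ACAT1, a mitochondrial thiolase, rose by 0.30 ± 0.04 (edgeR adjusted p = 4.4e-06). PPARA, a fatty acid-sensing nuclear receptor, rose by 0.86 ± 0.06 at 24 h (edgeR adjusted p = 4.26e-09). CPT1A, the gatekeeper of mitochondrial fatty acid import and a target of that receptor, fell at 24 h with -0.30 ± 0.04 (edgeR adjusted p = 3.65e-05), and PDK4 had 0.02 ± 0.12 (edgeR adjusted p = 0.921). ACADM and HADHA, enzymes of beta-oxidation, had -0.06 ± 0.04 and 0.01 ± 0.03 and did not pass. CPT2, which acts with CPT1A, was called higher at 24 h by edgeR. It was not called with DESeq2 (log2 fold change 0.14, DESeq2 adjusted p = 0.11) or with a replicate block. The changes among these genes thus went in both directions.

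The relatives given in this paragraph moved less than the member in each case, although they are not always its closest ones. SREBF2, the sister factor that drives cholesterol synthesis, rose by 0.74 ± 0.03 at 24 h (edgeR adjusted p = 8.43e-11), while the fitted value for SREBF1 was 1.74 ± 0.04. Among lipins, LPIN2 rose by 0.69 ± 0.05 and LPIN3 by 0.47 ± 0.06 (edgeR adjusted p = 1.27e-08 and 5.07e-06). Of 6 other acyl-CoA synthetases tested, ACSL3 (0.88 ± 0.04), ACSL1 (0.49 ± 0.08), ACSS2 (0.48 ± 0.05) and ACSL4 (0.28 ± 0.04) rose, ACSL5 fell (-0.15 ± 0.03) and ACSF3 did not pass (0.09 ± 0.05). The differences between a member and its relatives were not tested, since the member was selected for its size.

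The wider list of sterol and fatty acid synthesis, with members left out, had 25 tested genes. At 24 h against control 18 rose, 1 fell and 6 did not pass, with a median log2 fold change of 0.37, against 0.005 over all tested genes. At 6 h 2 rose, 10 fell and 13 did not pass, with a median of -0.11. Scaled by library size only, 20 fell at 6 h, with a median of -0.25. SCD, the desaturase that makes oleate, rose by 0.95 ± 0.02 at 24 h and had 0.06 ± 0.02 at 6 h (edgeR adjusted p = 0.0785). STARD4, a cholesterol carrier, rose at both times, by 1.89 ± 0.08 at 24 h and 1.70 ± 0.09 at 6 h.

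**Figure D3:**
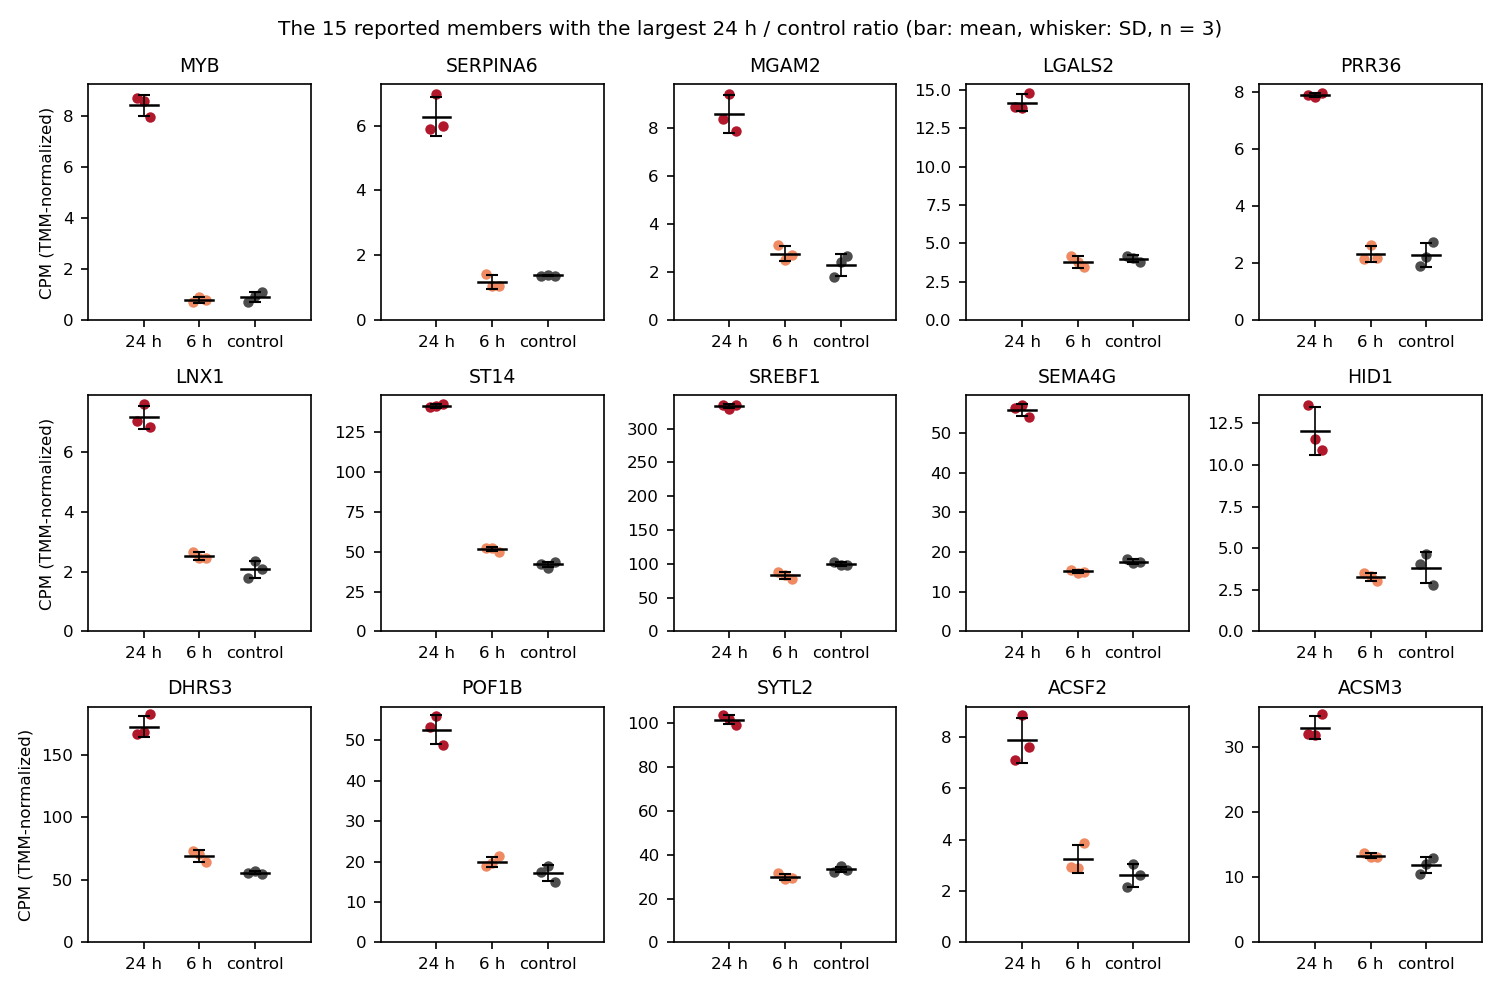
CPM in each library for the 15 reported members with the largest 24 h ratio, with groups in the order 24 h, 6 h and control; points are libraries, bars the mean and whiskers the SD of 3 libraries, and each y axis starts at 0. The 24 h points stand clear of the others in every panel, and those of 6 h and control lie close together.

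Epithelial surface, junction and mucosal genes made up 14 members. ST14 encodes matriptase, a membrane-bound serine protease of epithelial barriers, and had 140.5, 141 and 143 CPM at 24 h, 52.6, 52.3 and 49.99 CPM at 6 h and 42.2, 40.02 and 43.7 CPM in control. Its 6 h libraries were also all above control, by 1.23 times in the mean, and the 24 h mean was 3.37 times control. CD24, a small mucin-like surface protein anchored in the membrane, had 1019, 1012 and 937 CPM at 24 h, 331, 328 and 332 CPM at 6 h and 378, 377 and 356 CPM in control. Here every 6 h library was below every control library. Per kilobase of merged exons it had the highest 24 h level of the members, 320 CPM per kb, against 149 for ATP1B1. Its pseudogene CD24P4 is a near copy, so that reads could be split between the rows.

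CLDN7, a claudin of tight junctions whose window is printed above, had 14.6, 14.6 and 15.7 CPM at 24 h, 5.65, 6.88 and 6.56 CPM at 6 h and 6.35, 6.04 and 6.26 CPM in control, with 6 h and control overlapping. LIMA1, an actin-binding protein that links adherens junctions to the cytoskeleton, had 449, 454 and 435 CPM at 24 h, 205, 197 and 209 CPM at 6 h and 169, 174 and 170.2 CPM in control, and its 6 h libraries were all slightly above control. LGALS2, a galectin of gut epithelium, had 13.9, 13.8 and 14.8 CPM at 24 h, 4.22, 3.79 and 3.46 CPM at 6 h and 4.197, 4.08 and 3.78 CPM in control. The 6 h and control libraries of LGALS2 overlapped, as did those of CLDN7, while the 24 h libraries of CLDN7, LIMA1 and LGALS2 were all above the others. FCGBP, a protein of mucus, had 133, 126 and 139 CPM at 24 h, 60.8, 58.4 and 56.99 CPM at 6 h and 49.04, 48.1 and 50.9 CPM in control, again with the 6 h libraries just above control. The other ratios of 24 h to control means were 3.44 for LNX1, a ubiquitin ligase that binds junction and Notch-pathway proteins, 3.07 for the junctional actin-binding POF1B, 2.48 for the gap-junction protein GJB1 and 2.36 for the cadherin CELSR2. They were 2.33 for the anchored protease PRSS21, 2.31 for the membrane-type metalloprotease MMP15, 2.06 for the secreted lectin REG4 and 2.02 for the intramembrane protease RHBDL2.

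Relatives of these members, or partners in function, were tested as well. SPINT1, the membrane-bound inhibitor of matriptase, rose by 0.76 ± 0.09 (edgeR adjusted p = 2.37e-06), and the second inhibitor SPINT2 did not pass (-0.04 ± 0.04, edgeR adjusted p = 0.322). CLDN3 and CLDN4 rose at 24 h by 0.57 ± 0.13 and 0.25 ± 0.05 (edgeR adjusted p = 0.00153 and 0.000539) and fell at 6 h, with log2 fold changes of -0.69 ± 0.15 and -0.63 ± 0.05. CLDN1 did not pass at 24 h (0.04 ± 0.03) and rose at 6 h by 0.65 ± 0.03 (edgeR adjusted p = 4.81e-10). CELSR3, a relative of CELSR2 in neurons, rose by 0.25 ± 0.04 (edgeR adjusted p = 7.77e-05).

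Of 25 other tested genes on the list of epithelial differentiation and ductal genes, 15 rose at 24 h, 4 fell and 6 did not pass, with a median log2 fold change of 0.52. At 6 h 6 rose, 10 fell and 9 did not pass, with a median of -0.07. TJP3, a scaffold of tight junctions, had 36.8, 36.7 and 38.5 CPM at 24 h, 5.65, 7.67 and 5.403 CPM at 6 h and 9.29, 7.95 and 8.67 CPM in control, and rose by 2.12 ± 0.09 at 24 h (edgeR adjusted p = 2.52e-11). ELF3, an epithelial transcription factor, rose by 0.99 ± 0.04 at 24 h and its log2 fold change at 6 h was -0.53 ± 0.05, a fall that passed as well. MUC13, a transmembrane mucin, rose at both times, by 2.32 ± 0.07 at 24 h and by less at 6 h (edgeR adjusted p = 2.59e-13 and 2.42e-10). Genes of cell adhesion and matrix typical of mesenchymal cells went the other way at 24 h, with 2 of 16 higher, 12 lower and a median of -0.65, and at 6 h 5 were higher and 2 lower (2 and 6 by library size only, where the median turned to -0.05). On the list of YAP and SRF targets 1 of 16 rose at 24 h and 12 fell, against 8 that fell by library size only and 9 with DESeq2. At 6 h 7 rose and 5 fell, and by library size only 5 rose and 6 fell.

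Receptors, guidance, transport and trafficking genes made up another 14. ATP1B1, the beta subunit that brings the sodium pump to the cell surface, had 471, 459.9 and 397 CPM at 24 h, 175, 173 and 171 CPM at 6 h and 168, 174 and 159 CPM in control. The third 24 h library was lower than the other two, yet all were more than 2 times every control library. The sister subunit ATP1B3 rose by 0.15 ± 0.03 at 24 h (edgeR adjusted p = 0.000243). ERBB3, the neuregulin receptor with a weak kinase, had 98.6, 98.5 and 96.2 CPM at 24 h, 47.6, 47.4 and 50.4 CPM at 6 h and 42.9, 42.6 and 44.1 CPM in control, where the 6 h libraries were all slightly above control. Its dimer partners moved less or the other way. ERBB2 rose by 0.29 ± 0.04 (edgeR adjusted p = 7.86e-06), whereas EGFR fell at 24 h with a log2 fold change of -0.56 ± 0.04 (edgeR adjusted p = 1.62e-08).

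SEMA4G, a membrane-bound semaphorin, had 56.4, 56.9 and 54.1 CPM at 24 h, 15.6, 14.8 and 15.02 CPM at 6 h and 18.2, 17.1 and 17.5 CPM in control, and every 6 h library was below control. SYTL2, which tethers secretory vesicles through Rab27, had 104, 102 and 99.4 CPM at 24 h, 31.6, 29.02 and 29.5 CPM at 6 h and 32.3, 34.8 and 32.9 CPM in control. NIPAL1, a magnesium transporter, had 49.98, 49.9 and 49.9 CPM at 24 h, 15.4, 13.3 and 15.3 CPM at 6 h and 17.1, 18.7 and 19.2 CPM in control, the lowest 6 h ratio of the members. For SYTL2 and NIPAL1 too the 6 h libraries were all below control. The remaining ratios of 24 h to control means were 3.14 for HID1, a protein of dense-core vesicle formation, 2.604 for PLEKHB1, 2.38 for the guidance receptor ROBO3, 2.198 for the adhesion receptor ADGRB2, 2.19 for the scaffold MPP2 and 2.15 for CLSTN3, a calsyntenin. They were 2.14 for TMEM144, 2.06 for GIPC2 and 2.01 for the calcium channel TRPV4.

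Nuclear factors, histones and cell cycle genes made up 9 members. MYB, a transcription factor of progenitor cells in blood and colon, had 8.71, 8.59 and 7.95 CPM at 24 h, 0.714, 0.924 and 0.784 CPM at 6 h and 0.719, 0.957 and 1.11 CPM in control. The summed counts behind the control values are small, 48 over 3 libraries, against 900 at 24 h. The 6 h and control libraries overlapped, and the 24 h mean was 9.07 times control. Its relative MYBL1 fell at 24 h with -0.95 ± 0.07 (edgeR adjusted p = 1.39e-08). MYBL2 had -0.08 ± 0.03 (edgeR adjusted p = 0.0407), a small value that did not pass with DESeq2 (adjusted p = 0.0638), by library size only (edgeR adjusted p = 0.933) or without any 1 of the control or 24 h libraries.

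H2AJ, a variant of histone H2A, had a ratio of 2.14. Of other histone genes, the replication-independent linker histone H1-10 rose by 0.66 ± 0.04 at 24 h (edgeR adjusted p = 7.8e-09). The replication-dependent H1-2, H1-3, H1-4 and H1-5 did not pass. H1-5 was called lower with no filter on low counts (-0.73, edgeR adjusted p = 0.00391) and without 24 h library 1 (-1.32, edgeR adjusted p = 0.0198). HOXA13, the most posterior gene of its cluster, had 110.1, 106 and 102 CPM at 24 h, 36.2, 37.2 and 38.9 CPM at 6 h and 41.8, 44.2 and 41.7 CPM in control. Of its cluster, HOXA10 (0.04 ± 0.07), HOXA9 (0.17 ± 0.27), HOXA3 (-0.23 ± 0.10) and HOXA2 (-0.41 ± 0.32) did not pass at 24 h. HOXA3 was called lower with no filter on low counts, with a replicate block, and without 6 h library 1 or 3 or 24 h library 1. The edgeR adjusted p was 0.0383 to 0.0446 in these settings. The neighbouring noncoding HOTTIP on the other strand had a 24 h ratio of 2.31.

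CCNE2, cyclin E2, which activates CDK2 at the entry into S phase, had 27.9, 28.4 and 28.4 CPM at 24 h, 12.5, 10.9 and 11.5 CPM at 6 h and 13.5, 13.6 and 10.95 CPM in control, with 6 h and control overlapping. It overlaps INTS8, whose 24 h ratio was 1.47. Cyclin E1 (CCNE1) rose by 0.64 ± 0.08 at 24 h (edgeR adjusted p = 1.05e-05), and CCND1, the cyclin of early G1, fell with -0.83 ± 0.03 (edgeR adjusted p = 2.42e-12). FAM111B, a protease linked to DNA replication, had a ratio of 2.17. Its relative FAM111A, an antiviral restriction factor, rose by 0.58 ± 0.04 at 24 h and by 0.91 ± 0.04 at 6 h (edgeR adjusted p = 3.1e-08 and 1.67e-10). The others were PRAME (2.21), a tumour antigen, PARP6 (2.23), a mono-ADP-ribosyltransferase, and FSBP (2.49), whose row overlaps RAD54B.

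Other cell cycle genes split by phase at 24 h. Of 19 tested genes of G1/S and DNA replication that are no members, 15 rose, 2 fell and 2 did not pass, with a median log2 fold change of 0.43, and PCNA, the sliding clamp of DNA polymerases, rose by 0.73 ± 0.03 (edgeR adjusted p = 6.98e-11). On the list of G2/M and mitosis 0 of 20 rose, 19 fell and 1 did not pass, with a median of -0.61, and PLK1, a mitotic kinase, fell with -1.06 ± 0.03 (edgeR adjusted p = 2.46e-13). At 6 h, 2 rose and 4 fell on the first list and 2 rose and 7 fell on the second. By library size only these 6 h counts were 1 and 14 on the first list and 2 and 16 on the second. Among 22 genes of quiescence and growth restraint 11 rose and 4 fell at 24 h, while at 6 h 4 rose and 10 fell, with a median of -0.19. With DESeq2 8 rose and 4 fell at 24 h, and 4 rose and 7 fell at 6 h. By library size only 12 rose and 4 fell at 24 h, and 4 rose and 13 fell at 6 h.

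**Figure D4:**
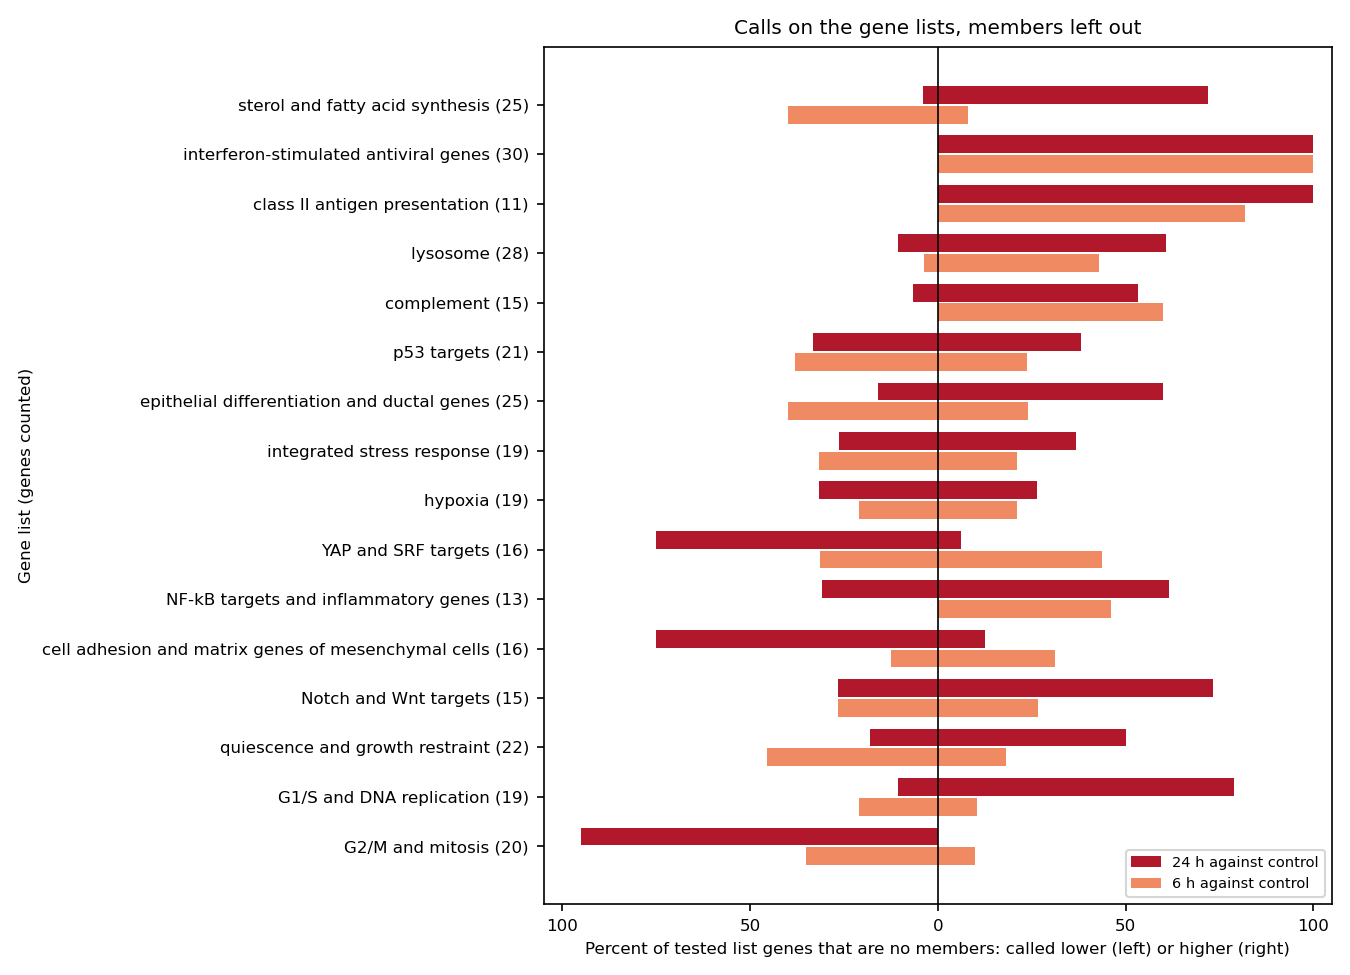
Bars give the percent of each list's tested genes that are no members and were called higher (right) or lower (left), at 24 h (dark, upper) and 6 h (light, lower) against control, with the number of genes in brackets. Sterol and fatty acid synthesis and G1/S lean right at 24 h but not at 6 h, and antiviral genes reach 100 percent at both times.

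A secreted carrier and a pair of lysosomal hydrolases formed a small group. SERPINA6, the corticosteroid-binding globulin of plasma, had 5.88, 6.96 and 5.97 CPM at 24 h, 1.43, 1.06 and 1.07 CPM at 6 h and 1.38, 1.41 and 1.37 CPM in control. The second 24 h library was the highest, and 6 h and control overlapped. DNASE2, which degrades DNA taken into lysosomes and so keeps it from nucleic acid sensors, had 20.6, 21.6 and 21.01 CPM at 24 h, 11.3, 11.1 and 10.4 CPM at 6 h and 9.11, 9.41 and 9.78 CPM in control. All 6 h libraries were above control, by 1.16 times in the mean. TREX1, the cytosolic exonuclease that limits signalling through cGAS and STING, rose at both times, by 1.53 ± 0.11 at 24 h and by 2.32 ± 0.10 at 6 h (edgeR adjusted p = 9.52e-09 and 4.36e-11). CPVL, a carboxypeptidase-like protein, had a ratio of 2.04 and overlaps CHN2 on the other strand, which had a ratio of 1.98 at 24 h and 1.89 at 6 h. Of 28 tested lysosomal genes 17 rose and 3 fell at 24 h. At 6 h 12 rose and 1 fell, with a median of 0.08, against 8 and 1 with DESeq2, and by library size only 7 rose and 7 fell, with a median of -0.06.

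Enzymes of small molecules and sugars made up 7 members. MGAM2, a maltase-like glucosidase, had 8.37, 9.41 and 7.87 CPM at 24 h, 3.11, 2.495 and 2.701 CPM at 6 h and 1.798, 2.42 and 2.67 CPM in control. GATM, which makes the creatine precursor guanidinoacetate, had 11.5, 11.5 and 10.97 CPM at 24 h, 4.93, 4.297 and 4.68 CPM at 6 h and 4.74, 3.62 and 4.89 CPM in control. In both genes 6 h and control overlapped. The remaining ratios were 2.46 for the arylsulfatase ARSL, 2.303 for the galactose mutarotase GALM, 2.08 for the glutathione transferase GSTM4, 2.04 for the mitochondrial creatine kinase CKMT1A and 2.01 for FN3K, which removes sugars bound to proteins. CKMT1A has a near-identical copy, CKMT1B, and GSTM4 belongs to a cluster of close paralogs, so both are uncertain.

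Signalling genes numbered 4. PPP1R1B, an inhibitor of protein phosphatase 1 known as DARPP-32, had 318, 321 and 312 CPM at 24 h, 106, 113 and 102 CPM at 6 h and 125, 122 and 114 CPM in control, and all its 6 h libraries were below control. TRIM2 (2.54), the kinase STK38L (2.12) and the adaptor DOK3 (2.103) completed the group. STK38, the relative of STK38L, rose by 0.17 ± 0.04 at 24 h (edgeR adjusted p = 0.0016). For 7 members no role is given here: PRR36 (3.44), AC013717.1 (2.68), VWA5A (2.596), AC138969.1 (2.34), NYNRIN (2.09), MNS1 (2.07) and BTBD8 (2.06). AC138969.1 had 78.5, 54.2 and 57.3 CPM at 6 h, the first of which stands apart, and its row overlaps the pseudogene PKD1P1. AC013717.1 overlaps SLC3A1, whose 24 h ratio was 2.02.

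**Figure D5:**
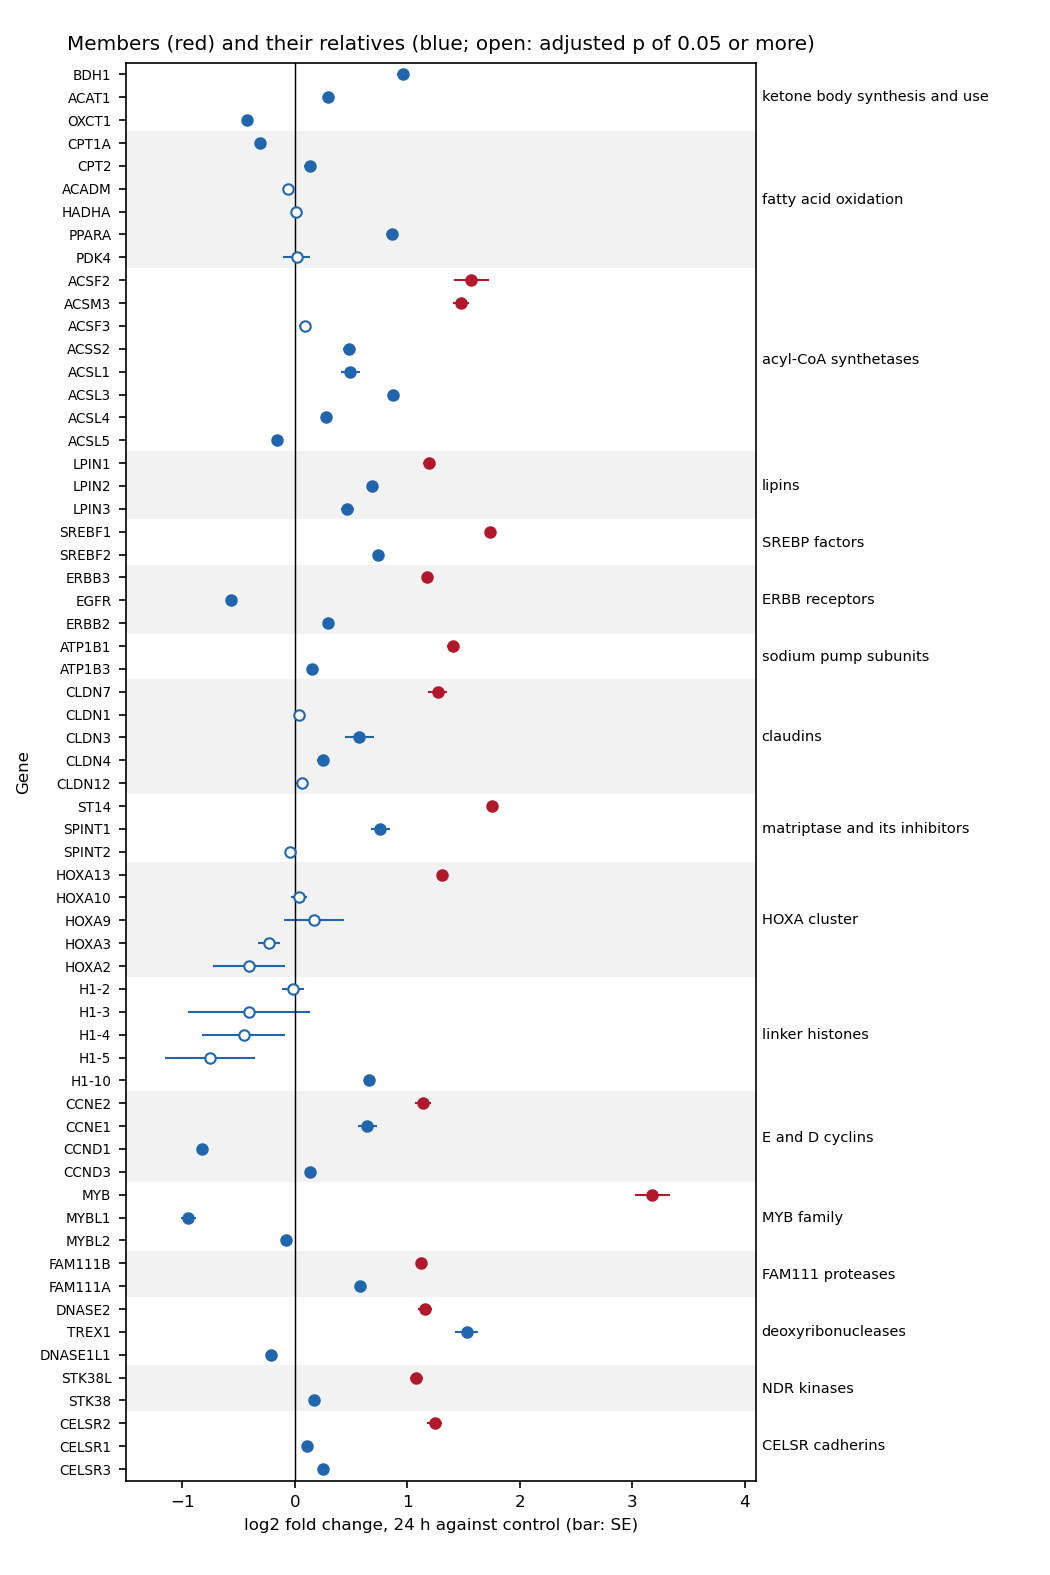
Log2 fold change at 24 h against control with its SE for members (red) and for their relatives or partners in function (blue), drawn in groups. Open symbols did not pass at an edgeR adjusted p of 0.05. Each member drawn stands to the right of the blue genes of its group, apart from DNASE2, which lies left of TREX1. The members were selected for a high value.

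Antiviral genes were already high at 6 h. All 30 tested genes of that list rose at 24 h and all 30 rose at 6 h, and no member is on the list. MX1, a GTPase that restricts viruses, had 989.5, 936 and 938 CPM at 24 h, 2012, 2016 and 2032 CPM at 6 h and 9.17, 12.7 and 15.8 CPM in control. Between the times 24 of the 30 were lower at 24 h than at 6 h and 6 were higher. Of 11 tested genes of class II antigen presentation all rose at 24 h and 9 at 6 h. Another 6 lists held no member. At 24 h these had 8 higher and 7 lower of 21 p53 targets, 7 and 5 of 19 genes of the integrated stress response, 5 and 6 of 19 of hypoxia, 8 and 1 of 15 of complement, 8 and 4 of 13 NF-kB targets and 11 and 4 of 15 Notch and Wnt targets. At 6 h 5 p53 targets were higher and 8 lower (11 by library size only), 4 and 6 of the stress response (9), 4 and 4 of hypoxia (7), 9 and 0 of complement (2), 6 and 0 NF-kB targets (3) and 4 and 4 Notch and Wnt targets (7), the number in brackets being the lower count by library size only.

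Markers of other cell types were checked as well. Of 15 fibroblast, endothelial and acinar markers 3 passed the filter, DCN, KDR, CPA1 and PNLIP were at 0 in all libraries, and the summed level over the list was 3.00 to 3.48 CPM at 24 h, 2.86 to 2.92 CPM at 6 h and 2.15 to 3.02 CPM in control. Of 14 leukocyte markers 8 were at 0 in all libraries (PTPRC, CD3E, CD3D, MS4A1, CD163, NKG7, FCGR3A and TYROBP). The summed leukocyte markers were 405 to 426 CPM at 24 h, 372 to 389 CPM at 6 h and 258 to 261 CPM in control, of which LYZ, a lysozyme, made up 331 CPM at 24 h, 258 CPM at 6 h and 227 CPM in control on average. The sum of the other leukocyte markers was also higher at 6 h and 24 h than in control. All 3 leukocyte markers that passed the filter were called higher at 24 h, and 2 of them at 6 h. The part of this rise in the members' levels was not tested. All 8 ductal and carcinoma markers were present, with sums of 5428 to 5554 CPM at 24 h, 5543 to 5848 CPM at 6 h and 4903 to 4964 CPM in control. Library totals of estimated counts were 25270387 to 40384407 at 24 h, 16799278 to 37420457 at 6 h and 15101734 to 19632741 in control, with more depth on average in the treated libraries. The part of depth in the members' ratios was examined by 1 random thinning of all libraries to the smallest total. It left 69 genes in the rule, 61 of them the same. Of the 69 members, 64 kept a 24 h ratio of 2 or more, the lowest being 1.87, and 3 lay above the 6 h band.

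On the genome the members were spread over many chromosomes. Chromosome 1 held 12 of them (17.4%, against 10% of tested genes), and chromosomes 11 and 17 held 7 each (10.1%, against 5.31% and 5.72%). The tested genes counted here include noncoding features and genes of low level, which could not be members. REG4 (chromosome 1, 119794017 to 119811581 in the coordinates of the deposited table on hg38) had 19.7, 19.8 and 18.6 CPM at 24 h, 9.54, 9.43 and 8.801 CPM at 6 h and 9.17, 8.76 and 10.3 CPM in control. The sources used here do not give the strand setting of the counting, and 18 members overlap another tested gene, 14 of them a gene on the other strand, so reads of such pairs cannot be told apart.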

How the data were processed

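Total RNA from 9 libraries of SUIT2 cells was sequenced on an Illumina HiSeq, per the labels' protocols. The submitters' processing notes name the aligner STAR 2.7.8a, Partek and the build hg38. The sources used here do not give the annotation release, the counting or the strand setting. The authors deposited estimated counts for 59609 genes, of which 22% of values are not whole, and these were rounded first, although the planned design assumed counts. They also deposited a normalized signal table, whose values equal the sum of the estimated count and 0.0001, multiplied by 1 constant per library, as checked.

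Groups came from the sample titles. Genes were filtered with filterByExpr (minimum count 10, minimum total 15) and tested with edgeR 4.0.16 (R 4.3.3, limma 3.58.1) by quasi-likelihood, with TMM factors and 1 model over 9 libraries, which had 6 residual degrees of freedom, a biological coefficient of variation of 0.0392 and Benjamini-Hochberg adjustment over 16964 genes at 0.05. Standard errors are of log2 fold changes, and SDs cover 3 libraries. The 6 h and 24 h comparisons share the control libraries. The precision of a level rests on library totals of at least 15101734 estimated counts and a summed control count of at least 48 for every member. The mean chi-square per gene between replicates was 1.59 to 5.61, above sampling noise in every pair, and each library counted as 1 sample.

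The members, the gene lists, the relatives or partners and the roles were chosen with earlier results of these data known. The relatives or partners and the roles were chosen after the values here had been seen. Named members are the 15 with the largest 24 h ratio, the 10 highest in level, those nearest the thresholds, those on a list and examples of each role, and list genes are up to 3 per list with the largest called change at 24 h. Some genes, those the rule leaves out among them, are not reported here. Exon lengths come from GENCODE 29, whose symbols or gene IDs held all 69 members; the start was the same for 44 and the end 1 base further for 46. Rows spanning 3000000 bases or more were left out of the overlaps.

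Alternatives were median-of-ratios size factors, library size only, DESeq2 1.42.0, no filter on low counts, a replicate block, the deposited table, other thresholds, every biotype and each library left out; thinning was added after the depths were seen. The test and the rule were checked on simulated data. Figures and motif searches used matplotlib 3.10.9, pandas 2.3.3 and numpy 2.4.6 in Python 3.11.15.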

Additional observations from a re-analysis of the deposited data

Results flagged for a closer look

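Noncoding features and pseudogenes lie outside the protein-coding rule, and 12 of them met the rest of it. Their 24 h means were 92.7 CPM for AC138932.1, 43.5 CPM for PKD1P6, 20.9 CPM for LINC01234, 17.3 CPM for CD24P4, 12.3 CPM for HOTTIP and 10.03 CPM for OLMALINC. They were 8.63 CPM for CD27-AS1, 7.01 CPM for ELF3-AS1, 6.90 CPM for AC009244.2, 6.19 CPM for ATP1B1P1, 5.44 CPM for LINC01694 and 5.31 CPM for TNFRSF14-AS1. Each was at least 2 times its control mean, up to 3.98 times for AC009244.2. CD24P4 and ATP1B1P1 are near copies of the members CD24 and ATP1B1, and HOTTIP lies beside HOXA13 on the other strand.

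Among the genes named that are no members, 24 were called in opposite directions at 6 h and 24 h against control, and the direct comparison of 24 h with 6 h passed in each (edgeR adjusted p under 0.05). These genes were lower at 6 h and higher at 24 h: log2 fold changes of 24 h over 6 h were 2.60 for TJP3, 1.61 for GDF15, 1.52 for ELF3, 1.48 for BDH1, 1.28 for YPEL3, 1.27 for CLDN3 and 1.27 for PPARA. They were 1.05 for CCNE1, 0.98 for YPEL5, 0.90 for SREBF2, 0.90 for BHLHE40, 0.89 for H1-10, 0.88 for CLDN4 and 0.37 for CELSR3. The reverse order, higher at 6 h and lower at 24 h, was seen for STC2 (-2.00), CDKN1A (-1.71), CDC20 (-1.31), CCND1 (-1.02), RELB (-1.01), NFKB2 (-0.88), ACTB (-0.81), EGFR (-0.69), ACSL5 (-0.47) and CPT1A (-0.47). By library size only the rises of CCND1, CPT1A, NFKB2, ACTB and EGFR at 6 h were not called. The falls of BHLHE40 and CELSR3 at 6 h were small and were not called by DESeq2 (adjusted p = 0.151 and 0.112).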

How the results depend on the processing

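The number of genes meeting the rule was 69. It was 71 with median-of-ratios size factors (68 of them members), 77 by library size only (54), 72 with no filter on low counts (66), 98 with a 6 h band of 0.67 to 1.5, 81 over every biotype and 69 after thinning (61). It was 321 in the deposited normalized table (47), 301 at a 24 h ratio of 1.5, 15 at a ratio of 3 and 139 at a minimum of 1 CPM. Leaving out 1 library gave 65 to 72. The median log2 ratio of all tested genes at 24 h was 0.44 in the deposited table and 0.08 by library size, against 0.003 with TMM, and at 6 h 0.18 and -0.14, against -0.005. Members' 24 h ratios moved by more than a replicate SD in 86 of 897 recalculations, 66 of them with the deposited table, and none changed direction.

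Genes called numbered 8475 at 24 h against control, 5576 at 6 h against control and 9704 between the times. DESeq2 gave 7084, 4500 and 8210. Leaving out 1 library gave 7497 to 8981, 4722 to 5489 and 8847 to 9739. By library size only the higher share was 64.1% at 24 h (49.5% with TMM), 21.2% at 6 h (53.2%) and 76.9% between the times (46.6%). With the replicate number as a block the counts were 8133, 5149 and 9393. Deviations of same-numbered libraries from their group means had correlations of -0.46 to 0.18. With 3 libraries per group these cannot decide whether the numbers pair the samples, and the labels do not say.

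Reversals occurred only by library size, at 6 h for ACTB (log2 fold change -0.048) and EGFR (-0.016), and in list medians for hypoxia at 24 h (0.0275), p53 targets (-0.12), YAP and SRF targets (-0.039), lysosome (-0.062), hypoxia (-0.124) and adhesion and matrix genes (-0.0542) at 6 h, and between the times for complement (0.0012) and NF-kB targets (0.11). Over the named genes, 2005 recalculations kept call and direction, 52 lost the call, 13 gained it and 2 reversed. The cause was not tested. Low counts limit the precision of MYB, SERPINA6 and the other members under 10 CPM.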
